A study of Mus musculus with 8 samples.

Results

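The 4 castrate resistant (CR) tumors of a series of 8 Myc-CaP tumors were compared, 2 metastatic tumors against 2 primary tumors. They were chosen by their labels alone. Myc-CaP cells are murine prostate cancer cells that carry a Myc transgene under a probasin promoter, and Myc-CaP/CR is their castrate resistant line. The cells were placed orthotopically in the prostate of FVB males, which were intact or surgically castrated before transplantation. Which host each tumor grew in is not given in the sources used here, and neither is the organ each metastasis came from. The other 4 tumors, 2 primary and 2 metastatic, came from the androgen sensitive (AS) line and are used only for comparison. All 8 tumors were grown from Myc-CaP cells, so they stand for 1 cell line model. The metastases are labelled as matched without naming their partners, so the numbers in metastatic CR1 and CR2 and in primary CR1 and CR2 carry no pairing. Since the labels do not say that 2 tumors of a group came from separate animals, a p-value measures the spread between these tumors only.

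Metastasis requires tumor cells to leave the primary site, survive in transit and grow in another tissue, where oxygen supply, matrix and resident cells differ. Bulk RNA from a tumor is a mixture of tumor cells and host cells, so for any marker fewer cells of a type and less RNA per cell cannot be told apart. Values below are CPM, read counts scaled to the size of each library, with TMM factors (a trimmed mean of log ratios between libraries) computed over the 4 CR tumors. Log2 fold changes are metastatic minus primary. Where values are given against each other, those of metastatic CR1 and CR2 come first and those of primary CR1 and CR2 second.

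The label of a prostate tumor was checked against luminal prostate markers and Cdh1. Krt8, a luminal keratin, was at 397 and 285 CPM in the metastatic tumors and at 669 and 251 CPM in the primary tumors. Hoxb13, a homeobox factor of the prostate, was at 31.1 and 13.6 CPM against 44.8 and 5.94 CPM. Pbsn, which encodes the secretory protein probasin, had at most 1 read in any of the 4. Cdh1, the epithelial cadherin, did not exceed 0.580 CPM in any CR tumor. The tumors therefore carried luminal keratin RNA, with Pbsn at or near 0.

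The primary CR tumors differed from each other in RNA composition before any comparison between the groups. Reads counted at Lars2, the gene of the mitochondrial leucyl-tRNA synthetase, made up 0.140% of all counts in primary CR1 and 8.53% in primary CR2. They made up 9.54% and 9.39% in metastatic CR1 and CR2. A gene for the RNA of the signal recognition particle ran the other way, with 12% in primary CR1, 1.33% in primary CR2, 1.81% in metastatic CR1 and 2.16% in metastatic CR2. Mitochondrial ribosomal RNA took 2.53% in primary CR1. The other CR tumors ranged from 10.4% to 23.8% and the AS tumors from 11.5% to 14.6%, so primary CR1 was under both. In Lars2, in nuclear ribosomal RNA genes and in the signal recognition particle RNA, primary CR1 lay nearer to the 4 AS tumors than to the other CR tumors. The values of the AS tumors ran from 0.0259% to 0.0998% for Lars2 and from 6.81% to 10.2% for the signal recognition particle RNA. Nuclear ribosomal RNA genes took 0.0399% in primary CR1 and from 0.571% to 0.753% in the other CR tumors. Whether the reads counted at Lars2 came from its messenger RNA was not tested. The part of this composition difference in the results below was not tested, and results are also given without single tumors where that changes them.

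**Figure D1:**
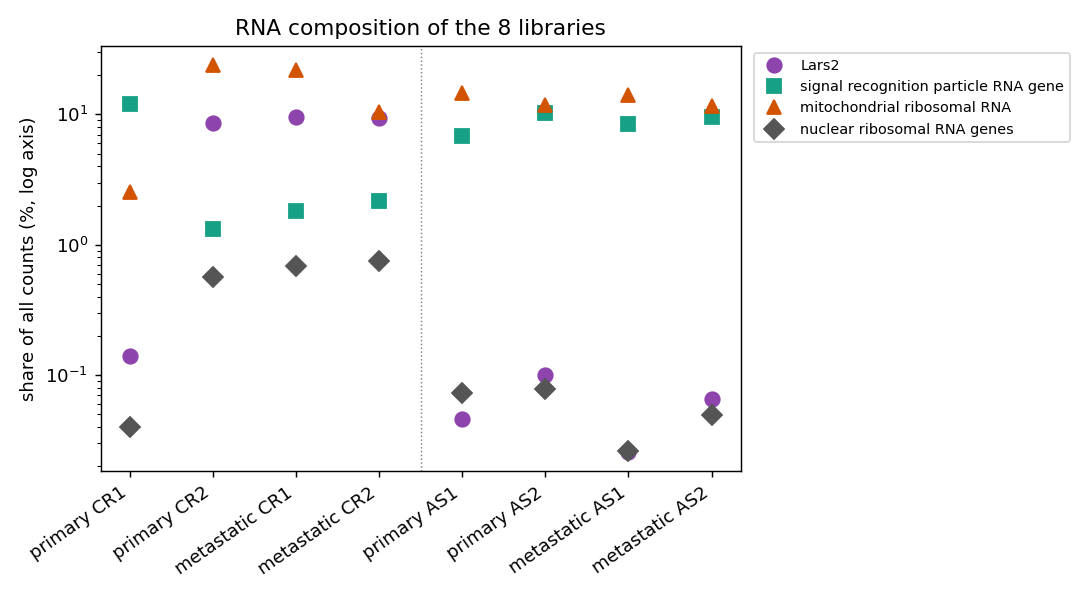
Share of all counts (%, log axis) taken by 4 RNA classes in each of the 8 tumors, 1 point per class and tumor. Primary CR1 stands apart from the other 3 CR tumors, with Lars2 at 0.140% against 8.53% to 9.54%. The AS tumors are to the right of the dotted line, with Lars2 between 0.0259% and 0.0998%.

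Total counts were 40586710 and 20905806 in metastatic CR1 and CR2 and 76887592 and 24909389 in primary CR1 and CR2. Thinned to the smallest total, 27438 genes had a count in metastatic CR2 and between 20053 and 21898 in the other 3 CR tumors, so more genes were detected at low level in metastatic CR2. The primary tumors differed by at least 2-fold in 3907 genes, which is 24.5% of the genes tested. This exceeded every difference between a metastatic and a primary tumor. Those were 2917 genes for metastatic CR1 against primary CR1, 2114 for metastatic CR1 against primary CR2, 3824 for metastatic CR2 against primary CR1 and 2528 for metastatic CR2 against primary CR2. The metastatic tumors differed from each other in 2472 genes. The spread within the primary group was therefore as large as the difference between groups.

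Of 15961 genes tested by edgeR's quasi-likelihood test, 0 had an adjusted p-value under 0.05 (0% of the genes), and 395 (2.47%) had an unadjusted p-value under 0.05. Metastatic tumors had the higher level in 146 of those (0.915%) and the lower level in 249 (1.56%), a split of 37.0% higher. This split became 47.7% with TMM factors from protein-coding genes without Lars2, 49.0% with upper-quartile factors and 54.8% with the total count alone. Other tools called few genes: limma-voom called 0, edgeR's exact test called 1 and DESeq2 called 5. The gene called by the exact test was Chad, and the genes called by DESeq2 were Chad, Eda2r, BC018473 and an annotated 5S ribosomal RNA gene among the higher ones and Inmt among the lower. BC018473, an antisense gene, was at 9.45 and 0.580 CPM in the metastatic tumors and at 0.217 and 0.0471 CPM in the primary tumors, so its difference came mostly from metastatic CR1. Without primary CR2, edgeR called 68 genes, 58 higher and 10 lower, with the single remaining primary tumor taken to vary like the metastatic group. With each of the other 3 tumors left out it called 0. A fitted fold of at least 2 was reached by 916 genes in the higher direction (5.74%) and by 516 in the lower (3.23%).

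Because 2 tumors against 2 cannot give an exact permutation p below 0.333, genes were also described by the gap between the groups, with no test. A gene was called separated when the lower tumor of one group was at least 2-fold above the higher tumor of the other. Metastatic tumors were separated above primary tumors in 89 genes (0.558%) and below them in 47 genes (0.294%). These included 53 protein-coding genes above and 36 below. With no minimum gap, metastatic tumors were above primary tumors in 2170 genes (13.6%) and below in 2680 genes (16.8%), and these shares are the background for the gene lists below. Most of the separated genes above were at low level: 39 of the 53 protein-coding genes above and 9 of the 36 below had a mean under 1 CPM. Among genes with at least 1 CPM in 2 tumors, 24 were separated above and 23 below. With a mean of at least 5 CPM, 5 protein-coding genes were separated above and 16 below, and the genes named are those 5 and the 12 of the 16 with the widest gap.

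Chad, which encodes the cartilage matrix protein chondroadherin, had the widest gap of all genes. It was at 19.0 and 21.4 CPM in metastatic CR1 and CR2, and at 0.982 and 0.377 CPM in primary CR1 and CR2. The lower metastatic tumor was 18.5-fold above the higher primary tumor. The log2 fold change was 4.80 ± 0.53 (SE), with an unadjusted p of 0.00011 and an adjusted p of 0.999 by edgeR's quasi-likelihood test. These levels rest on 685 and 516 reads in the metastatic tumors and on 86 and 8 in the primary tumors. In the AS tumors, on the scale of all 8 tumors, Chad was at 1.44 and 0.971 CPM in the metastatic and at 2.92 and 0.516 CPM in the primary tumors, so no tumor other than the CR metastases reached 3 CPM. Chad lies on chromosome 11 at 94565047 to 94569127 on the plus strand (mm10), and none of its exon bases is shared with another gene.

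Eda2r, a death-domain receptor for ectodysplasin A2 and a known p53 target, was at 21.5 and 37.6 CPM in the metastatic and at 7.65 and 8.01 CPM in the primary tumors. Its log2 fold change was 1.91 ± 0.37. Ddr2, a receptor tyrosine kinase that binds fibrillar collagen, was at 21 and 22.1 CPM against 8.61 and 2.83 CPM, a log2 fold change of 1.90 ± 0.54. The metastatic tumors lay close together in this gene, and primary CR2 lay well under primary CR1. Tcof1, which encodes the nucleolar protein treacle needed for ribosomal RNA synthesis, was at 16.7 and 17.0 CPM against 5.62 and 7.16 CPM, a log2 fold change of 1.40 ± 0.32. Ttc23l, a tetratricopeptide repeat gene, was at 9.4 and 9.53 CPM against 4.43 and 4.43 CPM. The adjusted p was 0.999 for each of these genes by edgeR's quasi-likelihood test.

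Among the genes below, Inmt, which encodes indolethylamine N-methyltransferase, was at 11 and 19.0 CPM in the metastatic and at 58.7 and 54.4 CPM in the primary tumors. The log2 fold change was -1.92 ± 0.35. Steap4, a metalloreductase that handles iron and copper and responds to androgen, was at 241 and 120 CPM against 524 and 825 CPM, a log2 fold change of -1.90 ± 0.50. Ptgs1, the constitutive cyclooxygenase, was at 127 and 111 CPM against 271 and 297 CPM, a log2 fold change of -1.25 ± 0.32. In each of these genes the 2 metastatic tumors were on one side of a gap of at least 2-fold. Cpne7, a calcium-dependent membrane-binding copine, was at 3.16 and 0.290 CPM against 7.79 and 11.2 CPM, and metastatic CR2 held only 7 reads. Sytl1, a Rab27 effector of vesicle transport, was at 6.74 and 7.88 CPM against 19.0 and 17.7 CPM. Treh, which encodes trehalase, was at 5.79 and 3.11 CPM against 13.0 and 12.6 CPM, and Trabd was at 37.7 and 41.6 CPM against 84.9 and 84.5 CPM.

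Of the 12 genes named below, 4 were members of the Ugt1a cluster on chromosome 1, whose enzymes attach glucuronic acid to bilirubin, steroids and drugs. Ugt1a6b was at 4.99 and 6.47 CPM in the metastatic and at 15.5 and 18.8 CPM in the primary tumors, and Ugt1a1 was at 3.41 and 5.55 CPM against 11.4 and 12.7 CPM. Ugt1a6a and Ugt1a10 had log2 fold changes of -1.41 and -1.42. These genes share their last exons, with 60.6% of the exon bases of Ugt1a6b and 82.7% of those of Ugt1a1 inside another gene, so their counts are not independent and they are best read as 1 observation. B3gnt1, a glycosyltransferase, was at 4.24 and 4.27 CPM against 9.70 and 9.71 CPM. In the annotation 85.3% of its exon bases also lie in another gene, which is not among the genes of the count files.

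**Figure D2:**
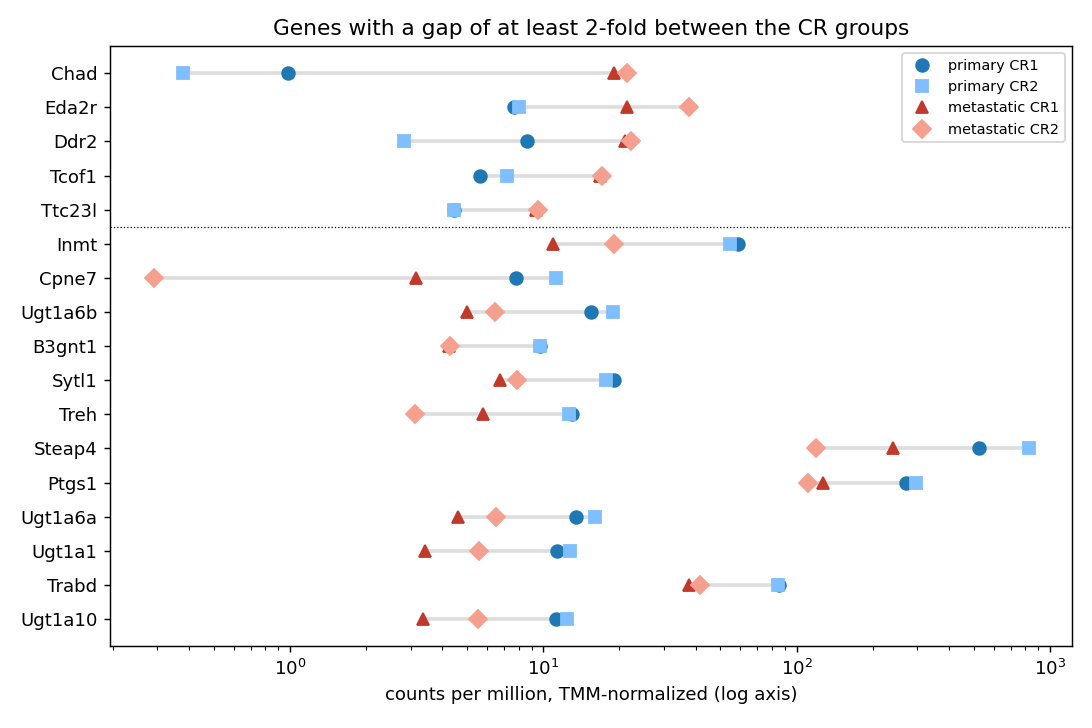
TMM-normalized CPM (log axis) of the 17 named protein-coding genes with a gap of at least 2-fold, 1 point per CR tumor, with the 5 genes above in metastatic tumors over the dotted line and the 12 below under it. Chad shows the widest gap, from 19.0 and 21.4 CPM in the metastatic tumors to 0.982 and 0.377 CPM in the primary tumors.

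Of the 6 genes fixed by name, 5 are described whatever their values. Top2a, the topoisomerase that untangles chromosomes in dividing cells, was at 77.7 and 139 CPM in the metastatic and at 130 and 24.4 CPM in the primary tumors. Primary CR1 lay between the metastatic tumors, so the groups overlapped, and the log2 fold change was 0.49 ± 0.75. It became -0.32 without primary CR2 and 2.15 without primary CR1. Mki67, the proliferation marker, was at 76.6 and 142 CPM against 61.7 and 32.7 CPM, with a log2 fold change of 1.21 ± 0.45 and no overlap. It became 0.72 without metastatic CR2, 0.76 without primary CR2 and 1.73 without primary CR1. Ezh2, the methyltransferase of Polycomb repressive complex 2, was at 23 and 20.4 CPM against 17.8 and 19.7 CPM, a log2 fold change of 0.21 ± 0.27. Myc was at 6.51 and 6.22 CPM against 4.91 and 6.65 CPM. These reads were counted at the mouse Myc gene, and whether they include RNA of the Myc transgene was not tested. Gapdh, often used as a reference gene, was at 55.3 and 66.2 CPM against 32.6 and 39.1 CPM, so it did not overlap between the groups and differed by 0.76 ± 0.27 on the log2 scale.

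Proliferation genes as a whole followed single tumors. Of 52 genes of the G2/M and mitosis list, metastatic CR2 was highest in 43 and primary CR2 was lowest in 48. The groups did not overlap in 3 genes above and 1 below, both under the shares of all genes. The median log2 fold change was 0.61, against -0.01 over all genes, and it became -0.07 without metastatic CR2, -0.02 without primary CR2 and 1.79 without primary CR1. Of 43 DNA replication genes, metastatic tumors were above in 5, under the 13.6% of all genes, and below in 0. One of these, E2f8, an atypical E2F repressor, was at 3.66 and 5.84 CPM in the metastatic and at 1.38 and 1.27 CPM in the primary tumors. Histone genes were highest in primary CR1 for 51 of 56 and lowest in primary CR2 for 54, so their spread was within the primary group.

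By number, the hypoxia list had the most members with both metastatic tumors above both primary tumors. When oxygen is low, hypoxia-inducible factors bind promoters and enhancers that contain the core ACGTG and raise genes of glycolysis, vessel growth and matrix modification. Of 28 tested members the metastatic tumors were above both primary tumors in 11 and below in 0. The median log2 fold change was 0.38, it ran from 0.37 to 0.43 under the other scalings, and it was 0.92 without primary CR1 and 0.19 without primary CR2. Primary CR2 was the lowest tumor in 19 of the 28. Bnip3, a mitophagy receptor, was at 102 and 93.9 CPM in the metastatic and at 66.5 and 41.8 CPM in the primary tumors. P4ha1, a collagen prolyl hydroxylase, was at 112 and 103 CPM against 76.9 and 46.4 CPM. Vegfa, the main vascular growth factor, was at 37.4 and 39.0 CPM against 28.6 and 19.4 CPM. Of the oxygen sensors, Egln1 was at 62.9 and 70.5 CPM against 45.6 and 53.1 CPM, and Egln3 was at 1.58 and 4.44 CPM against 0.514 and 1.04 CPM. None of these had an adjusted p under 0.999 by edgeR's quasi-likelihood test.

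The ACGTG core was searched on both strands in the 250 bases before the start in RefSeq promoters of GRCm38.p6. The table held a promoter for 6 of the 11 genes above, of which 5 (83.3%) carried the motif, and for 15 of the 17 other members, of which 9 (60.0%) did. Of 9739 tested genes with a promoter 24.7% held it, as did 16.6% of all 32851 windows. Membership of a hypoxia list is itself chosen by knowledge of this regulation, so the shares describe the list and not these tumors. The windows of 3 of the 5 genes are shown as examples of the match, with the motif, read on either strand, in capitals.

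Bnip3, chr7:138909569-138909648, minus strand: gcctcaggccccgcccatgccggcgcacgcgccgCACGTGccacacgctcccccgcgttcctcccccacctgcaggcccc
P4ha1, chr10:59323245-59323295, plus strand: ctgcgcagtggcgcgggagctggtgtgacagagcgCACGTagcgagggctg
Egln1, chr8:124949278-124949357, minus strand: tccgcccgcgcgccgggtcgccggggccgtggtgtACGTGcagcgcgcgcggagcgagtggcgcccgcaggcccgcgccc

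The motif lay 107 bases before the start in Bnip3, 16 in P4ha1 and 68 in Egln1. In Bnip3 both orientations overlap in the palindrome CACGTG. A match describes the letters in the window and says nothing of binding.

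Heat shock genes had 6 of 14 members above and 0 below, with a median log2 fold change of 0.35. Primary CR2 was the lowest tumor in 11 of the 14, and the median was 0.12 without it. Hsp90ab1, a constitutive chaperone, was at 2016 and 1986 CPM in the metastatic and at 1472 and 1523 CPM in the primary tumors, and Hspa8 was at 328 and 243 CPM against 168 and 225 CPM. The list median kept its sign without each of the 4 tumors, as it did for the hypoxia, mesenchymal and glutathione lists. Of 8 mesenchymal transition genes 3 were above and 0 below: Zeb1, a repressor of epithelial genes, was at 6.79 and 4.31 CPM against 2.60 and 2.69 CPM, and Vim, the mesenchymal intermediate filament, was at 47.1 and 76.4 CPM against 43.4 and 39.7 CPM. Of 26 immediate early genes 6 were above and 1 below, where 13.6% of all genes were above and 16.8% below. Their median of 0.03 became -0.12 without metastatic CR2. Among them Fos was at 8.73 and 9.87 CPM against 4.38 and 2.97 CPM. Glycolysis genes had 5 of 19 above and 1 below, but their median of 0.21 became -0.21 without primary CR2.

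Genes of glutathione and phase II metabolism, which conjugate and clear reactive compounds, had 6 of 21 members below and 0 above. The median log2 fold change was -0.31, and it lay between -0.32 and -0.30 without each of the 4 tumors. Ggt1, which breaks down extracellular glutathione, was at 32.7 and 36.5 CPM in the metastatic and at 62.4 and 89.2 CPM in the primary tumors. Gpx4, the enzyme that reduces lipid peroxides, was at 110 and 89.7 CPM against 327 and 139 CPM. Gstp1, a glutathione transferase, was at 33.5 and 32.7 CPM against 86.4 and 52.2 CPM. The 6 include Ugt1a6a, already described among the separated genes, so they are not independent of that group.

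Endoplasmic reticulum folding genes had 4 of 20 below, near the share of all genes, and 1 above. Primary CR2 was the highest tumor in 14 of the 20, and the median of -0.28 became 0.02 without it. Among them Sdf2l1, an ER chaperone partner, was at 11.9 and 12.4 CPM against 24.7 and 40.5 CPM, and Xbp1, a factor of the unfolded protein response, was at 172 and 168 CPM against 291 and 368 CPM. Cholesterol synthesis genes had 6 of 23 below and 2 above, with a median of -0.44 that became 0.15 without primary CR1, the highest tumor in 18 of the 23. Of 17 tested luminal prostate genes 3 were below and 2 above, near the shares of all genes. Fkbp5, an androgen-induced gene, was at 424 and 289 CPM against 518 and 525 CPM, while Krt19 was at 16.6 and 16.2 CPM against 125 and 21.2 CPM, where primary CR1 alone was high. Interferon response genes were highest in metastatic CR2 in 29 of 31, and their median of 0.87 became -0.40 without that tumor.

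Secreted factors and matrix enzymes were mostly at low level. Of 23 chemokines and cytokines 2 were above and 3 below, both under the shares of all genes. Cxcl5, which attracts neutrophils, was at 0.416 and 0.373 CPM against 2.4 and 1.27 CPM, and Il33, an alarmin, was at 9.06 and 7.01 CPM against 13.3 and 18.8 CPM. Of 24 matrix proteases and inhibitors 2 were above, under the share of all genes, and 4 below, near the share of all genes. Mmp12, the macrophage elastase, was at 12.9 and 1.12 CPM against 0.171 and 0.566 CPM, so metastatic CR1 alone was high. Of 21 Wnt pathway genes 1 was above, under the share of all genes, and 4 below, near the share of all genes. Wnt4, a secreted ligand, was at 47 and 58 CPM against 64.7 and 128 CPM. Fzd7, a receptor, was at 14.7 and 13.5 CPM against 9.4 and 8.81 CPM.

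Of 80 cytosolic ribosomal protein genes 11 were below and 4 above, both under the shares of all genes. Primary CR1 was the highest tumor in 47 and metastatic CR2 the lowest in 56. Mitochondrial messenger RNAs were lowest in primary CR1 for 11 of 13 and highest in primary CR2 for 12, the order in which mitochondrial ribosomal RNA also stood. Of 29 genes of the ATF4 amino acid response 3 were above, under the share of all genes, and 0 below. Primary CR1 was the highest tumor in 21 of the 29. One of the 3, Slc7a1, a transporter of cationic amino acids, was at 73.8 and 79.1 CPM against 41.1 and 45.4 CPM.

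At a gap of at least 4-fold there were 10 genes, 9 above and 1 below, and Chad was the only one of them with a mean over 5 CPM. The protein-coding genes Atp6v0d2 and Ccnjl, named here after their values were seen, are among them. Atp6v0d2, a proton pump subunit of osteoclasts and macrophages, was at 0.748 and 0.622 CPM against 0.0342 and 0.0943 CPM, and Ccnjl, a cyclin-like gene, was at 0.832 and 0.580 CPM against 0.0228 and 0.0943 CPM. Both stood at under 1 CPM in every tumor.

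**Figure D3:**
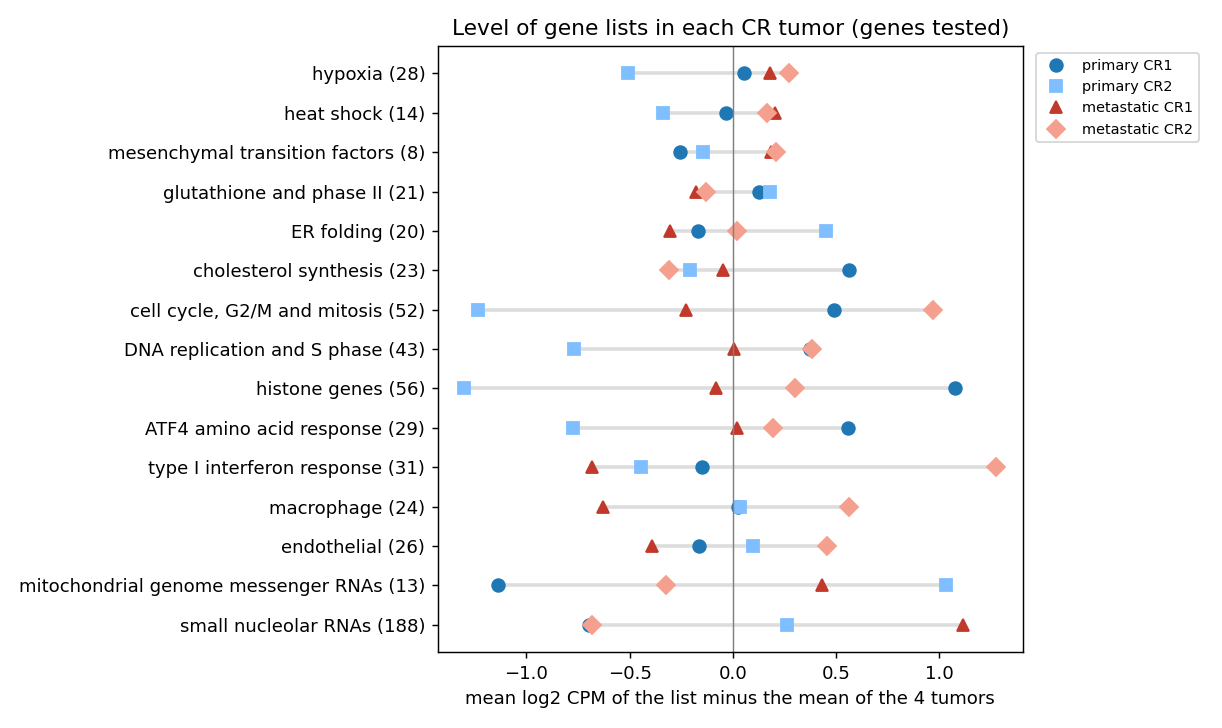
Mean log2 CPM of each gene list in each CR tumor, minus the mean of the 4 tumors, with the number of genes tested in brackets. For the hypoxia list both metastatic tumors lie above both primary tumors, while cell cycle genes spread from primary CR2 to metastatic CR2 and histone genes from primary CR2 to primary CR1.

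**Figure D4:**
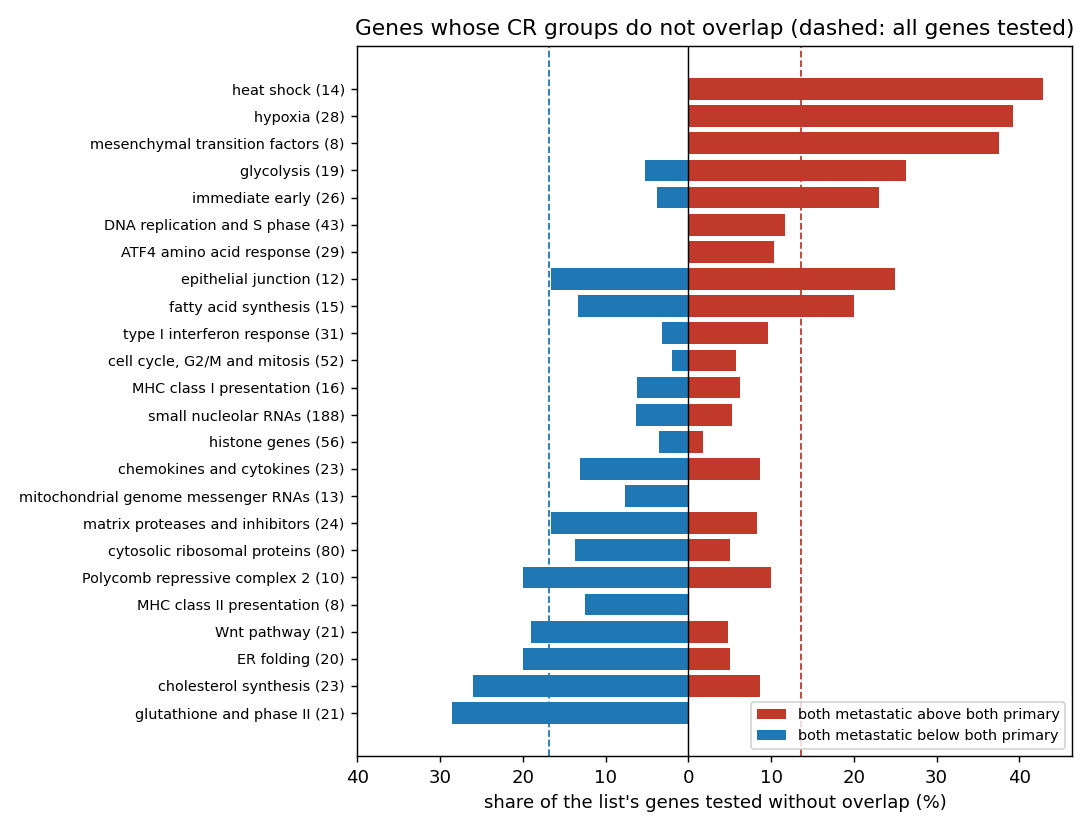
Share of each list's tested genes (%) in which both metastatic tumors lie above (right, red) or below (left, blue) both primary tumors, for lists of at least 8 genes other than cell type lists. The dashed lines are the shares over all genes tested, 13.6% above and 16.8% below; heat shock (6 of 14) and hypoxia (11 of 28) have the longest bars above and glutathione (6 of 21) the longest below.

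Markers of host cells were measured for the same tumors, since a metastasis and a primary tumor can hold different host cells. Of 24 macrophage genes 1 was above and 1 below, both under the shares of all genes. Their summed level ran from 870 to 1467 CPM in the metastatic and from 1515 to 1542 CPM in the primary tumors. The sum weighs abundant genes most. Their mean log2 CPM was 3.31 and 4.50 against 3.96 and 3.97, where the groups overlapped. Metastatic CR2 was the highest tumor in 15 of the 24 and metastatic CR1 the lowest in 19. Arg1, the arginase of alternatively activated macrophages, was at 228 and 171 CPM against 365 and 490 CPM. Of 26 endothelial genes 4 were above, near the share of all genes, and 3 below, under the share of all genes. Their summed level ran from 135 to 227 CPM in the metastatic and from 145 to 180 CPM in the primary tumors. Of 6 tested T and NK cell genes 0 were above and 1 below. Their median of 0.52 became 1.65 without metastatic CR1 and -0.24 without metastatic CR2. Most genes of that list were too low to test. Among these, Cd3e had at most 2 reads in any CR tumor. Skap1 had 63 reads in metastatic CR2 and at most 4 in the other CR tumors, while Eomes had most in primary CR1, at 23. Of 27 fibroblast and matrix genes 1 was above and 2 below, both under the shares of all genes. Their summed level ran from 799 to 830 CPM in the metastatic and from 681 to 705 CPM in the primary tumors. Their median log2 fold change had the other direction, at -0.19. Their mean log2 CPM was 2.95 and 2.52 against 3.23 and 2.31, where the groups overlapped. The part of host cells in the differences above was not tested.

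Of 5 tested erythroid genes 3 were above and 0 below. Slc4a1, the anion exchanger of red cells, was at 1.91 and 0.705 CPM against 0.308 and 0.283 CPM, while Hba-a1, the globin, was at 65.0 and 54.3 CPM against 64.9 and 39.3 CPM and overlapped. Of 6 skeletal muscle genes 2 were above and 1 below, with Neb, the sarcomere protein nebulin, at 5.6 and 7.46 CPM against 2.75 and 1.46 CPM. Of 7 tested liver genes 2 were above and 1 below, and their summed level was 449 and 538 CPM in the metastatic and 419 and 1969 CPM in the primary tumors. Among them Alb, the albumin of liver, was at 2.74 and 3.15 CPM against 0 and 0.990 CPM. The organ of each metastasis is not given, so these levels cannot be set against an organ.

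The AS tumors gave a second comparison of 2 metastatic with 2 primary tumors, within the same cell line model. Over 18889 genes, 0 genes (0%) differed in their metastatic effect between CR and AS tumors at an adjusted p-value under 0.05 by edgeR's interaction test, and 517 (2.74%) did at an unadjusted one. DESeq2 called 2, Chad and Atp6v0d2, and limma-voom called 0. For Chad the interaction was 5.23 ± 1.07 (SE) on the log2 scale. Of the 89 genes separated above in CR tumors, 57 were tested in AS tumors, and 12 of them were above and 10 below without overlap there, 21.1% and 17.5% against 20.5% and 17.7% of all AS genes. Of the 47 below, 46 were tested, with 8 above (17.4%) and 11 below (23.9%). The genes separated above in CR tumors were therefore divided between the directions in AS tumors about as all genes were. Those separated below were more often below than above in AS tumors, on few genes, and this was not tested.

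Eda2r, Ddr2 and Mki67 had log2 fold changes above 0 in both phenotypes, at 0.83, 0.57 and 1.46 in AS tumors. In Eda2r and Ddr2 the AS groups overlapped. Top2a was at 142 and 100.7 CPM in the AS metastatic and at 47.2 and 31.6 CPM in the AS primary tumors, a log2 fold change of 1.64, where the groups did not overlap. In CR tumors its groups overlapped, and the difference between the phenotypes of -1.23 ± 0.94 did not pass the test. Steap4 had a log2 fold change of 0.31 in AS tumors and -1.90 in CR tumors.

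**Figure D5:**
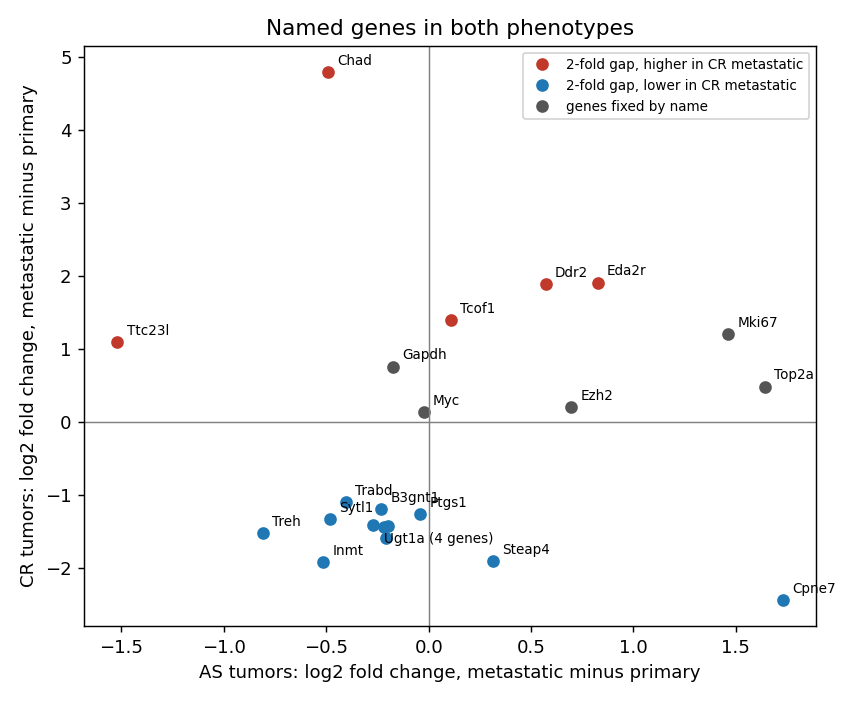
Log2 fold change of metastatic against primary tumors in AS tumors (horizontal) and CR tumors (vertical) for the named genes, with red and blue for genes with a 2-fold gap above and below in CR tumors and grey for 5 genes fixed by name. Chad lies at 4.80 in CR tumors and at -0.49 in AS tumors, while Mki67 lies above 0 in both.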

How the data were processed

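RNA from 8 Myc-CaP tumors was sequenced by the authors from ribosomal RNA-depleted, stranded, paired-end libraries of 101 bases. The authors mapped reads to mm10 with Bowtie, allowing 2 mismatches at a single location; the submitters' processing notes name TopHat2 2.0, CASAVA 1.8.2 and GRCm38. The deposited values are raw counts per gene. The authors applied TMM and DESeq afterwards, outside these files. Here the fit held the 4 castrate resistant tumors only (edgeR 4.0.16 under R 4.3.3). Genes were filtered by filterByExpr, given TMM factors and passed to its quasi-likelihood test. P-values were adjusted by Benjamini-Hochberg at 0.05. DESeq2 1.42.0 and limma 3.58.1 were alternatives. Log2 CPM used a prior count of 2 for gaps. The difference between phenotypes was tested over 8 tumors. Of 38115 identifiers, 36343 were found in GENCODE M21, which gave coordinates and exon overlap. The members and lists were chosen with earlier results of these data known. The named genes are 6 fixed genes, then separated protein-coding genes with a mean of at least 5 CPM, at most 12 in each direction. Some genes covered by the rule or the lists are not reported here. The fit was tested on simulated counts. In the simulated 4-tumor comparison, it recovered 2% of the genes changed 2-fold. Recovery rose to 28% at 4-fold, 84% at 8-fold and 98% at 16-fold, and 12 unchanged genes were called. For the CR minus AS difference it was 0% at 2-fold, 24% at 4-fold, 64% at 8-fold and 78% at 16-fold. There 5 unchanged genes were called. Most 2-fold and 4-fold changes were thus missed there. The simulation changed only genes above a minimum mean read count and held no composition difference within the primary group. Its recovery shares therefore need not hold for these tumors, where Chad did not pass the threshold at a log2 fold change of 4.80. A count of 0 genes does not show that differences of any of these sizes were absent. Total counts ran from 20905806 to 76887592 in these tumors.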

Additional observations from a re-analysis of the deposited data

Results flagged for a closer look

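Ttc23l was flagged because its metastatic tumors were above the primary tumors in CR and below them in AS, every tumor included. Its CR minus AS difference in the metastatic effect was 2.58 ± 0.71 (SE) on the log2 scale, and the adjusted p was 0.964 by edgeR's interaction test, so the difference did not pass the test. The AS tumors were at 1.40 and 1.53 CPM (metastatic) and 6.59 and 1.98 CPM (primary).

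Cpne7 was flagged for the reverse pattern, below in CR metastatic tumors and above in AS ones. The difference was -4.15 ± 1.25, with an adjusted p of 0.964 by the same test. Its AS tumors held 0.991 and 0.671 CPM (metastatic) against 0.33 and 0.177 CPM (primary), all under 1 CPM.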

How the results depend on the processing

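The number of genes past the adjusted threshold was 0 in the main fit and 0 with limma-voom, all 8 tumors in 1 fit and an adjusted p of 0.1. The number was also 0 with RLE factors, coding-gene TMM without Lars2, upper-quartile factors, the total count and a CPM of at least 1 in 2 tumors. It was 5 with DESeq2, 1 with edgeR's exact test and 137 without a filter on low counts, and between 0 and 68 with 1 tumor left out, the 68 without primary CR2. The count of separated genes, 136, became 875 without the filter, 47 with a CPM of at least 1 in 2 tumors, 541 at a gap of 1.5-fold and 10 at 4-fold, and lay between 811 and 2457 with 1 tumor left out, where a group of 1 tumor has fewer values to clear. The CR minus AS difference, 0 genes, became 2 with DESeq2 and 217 without the filter, and between 0 and 82 with 1 tumor left out, the 82 without primary CR2. Without a filter the median log2 fold change of all genes was 0.16. The pairing is not given, and fitting either of the possible pairings as a replicate block gave 0 genes, with 532 and 306 at an unadjusted p under 0.05 against 395. The cause of these shifts was not tested.

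Of the values reported without a threshold, some changed sign. The Wnt list median of -0.02 became 0.0002 with RLE factors and 0.0098 with coding-gene TMM without Lars2. It became 0.0323 with upper-quartile factors and 0.0268 with the total count, and ran from -0.2553 to 0.1472 with 1 tumor left out. The B and plasma cell list median of 0.11 ran from -0.6264 without metastatic CR2 to 0.3725 without metastatic CR1. The luminal prostate list median of -0.31 ran from -0.3629 without metastatic CR1 to 0.0842 without primary CR2. Myc ran from -0.0618 without primary CR1 to 0.3225 without primary CR2, and Top2a from -0.3211 without primary CR2 to 2.1466 without primary CR1. Of 42 list medians, 37 kept their sign under every scaling and 7 without each tumor. Depth limits genes below about 1 CPM, where metastatic CR2 showed more detected genes than the others.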
